A study of Schizosaccharomyces pombe with 9 samples.

Results

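The comparison described here sets Schizosaccharomyces pombe cells that lack tra1 (tra1D, 3 libraries) against wild type (WT, 3 libraries), across all genes and from raw counts. These are 6 of the 9 libraries of the series. The other 3 carry tra1-AA, an allele whose change the labels do not describe. They were fitted together with these 6, so they share in the filter, the scaling and the estimate of the spread. Their own levels are given only beside those of tra1D. All cells were in mid-logarithmic growth in the rich medium YES, and poly(A)-selected RNA was sequenced with a stranded kit. Each genotype is a single strain by its strain number, so a difference between the genotypes cannot be told apart from any other difference between the strains. The labels give neither mating type nor auxotrophic markers, nor the cassette that replaced tra1. The titles mark the WT and tra1D libraries, but not those of tra1-AA, as a re-analysis. Separate cultures are not stated for the replicates, so the p-values rest on the spread between replicate libraries of the 3 genotypes alone, which may be technical.

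Tra1 is a very large scaffold protein of the phosphatidylinositol 3-kinase-related kinase (PIKK) family that has lost kinase activity. In fission yeast it belongs to SAGA, a co-activator complex that acetylates and deubiquitinates histones and helps TATA-binding protein reach promoters. Its paralog Tra2 serves the acetyltransferase complex NuA4. Other PIKKs, among them Tor1 and Tor2, govern growth. SAGA in this yeast is known for its part in the switch between vegetative growth and mating.

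Library totals ran from 5738138 to 8101004 counts, and 4913 of 5129 genes had enough counts to be tested. Levels are given as CPM, the usual library-scaled counts. In a single library 1 count was worth 0.126 to 0.168 CPM, and a gene without a count could have had up to 0.379 to 0.503 CPM (3 counts, counting error only). On the first principal component of all 9 libraries, with 51.8% of the variance, the 3 WT libraries lay between -18.4 and -16.5 and the 3 tra1D libraries between 4.93 and 10.7. The tra1-AA libraries lay between 8.36 and 10.4, within the range of tra1D, so this component is not particular to the deletion.

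The deleted gene was nearly silent and its immediate neighbours on both sides were altered. tra1 (SPBP16F5.03c) was at 97.3, 96.0 and 88.9 CPM in WT replicates 1 to 3 and at 0.726, 0.259 and 0.335 CPM in tra1D. The groups lay far apart, by -7.69 on the log2 scale (SE 0.20, quasi-likelihood test of edgeR, Benjamini-Hochberg (BH)-adjusted p = 4.24e-10), and the ratio of summed counts was 216 (exact 95% counting interval 113 to 473). On one side lies ubc7 (SPBP16F5.04), which encodes a ubiquitin-conjugating enzyme of the endoplasmic reticulum. It was at 58.6, 66.3 and 58.0 CPM in WT and at 224, 217 and 199 CPM in tra1D, a log2 fold change of 1.81 (SE 0.08, edgeR, BH-adjusted p = 7.73e-08). On the other side lies mcs2 (SPBP16F5.02), encoding a cyclin of the kinase module of TFIIH. It stood at 18.8, 19.8 and 27.1 CPM in WT and at 4.36, 5.57 and 5.70 CPM in tra1D, a log2 fold change of -2.06 (SE 0.23, edgeR, BH-adjusted p = 1.45e-04). In both genes every tra1D library lay outside the WT range. In the reference annotation mcs2 is transcribed towards tra1 and shares 59 bases with it, whereas ubc7 is transcribed away from tra1 and shares none. The mcs2 value is uncertain, since the strand setting of the counting is not given in the sources used here. The next 4 genes on either side did not pass the test, with log2 fold changes from -0.43 for sul1 to 0.20 for SPBC3H7.04.

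**Figure D1:**
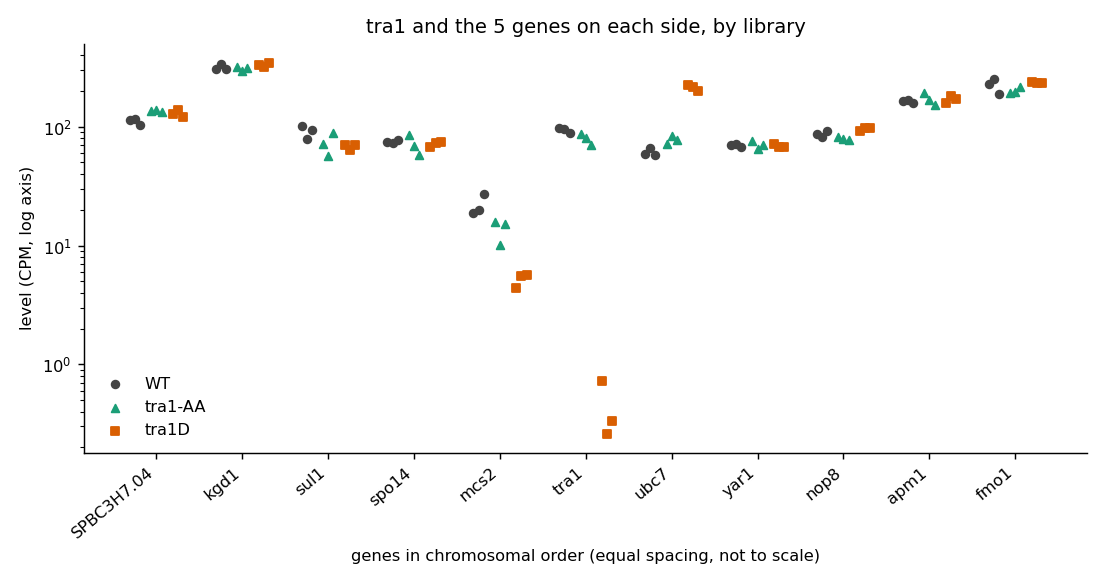
Levels (CPM, log axis) of tra1 and the 5 genes on each side in each library of WT (circles), tra1-AA (triangles) and tra1D (squares). In tra1D, tra1 and mcs2 lay below and ubc7 above every WT and tra1-AA library.

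tra1D was also set against tra1-AA, a strain with a tra1 transcript. Among the 4913 genes only tra1 and ubc7 were called between tra1D and tra1-AA (0.0407%), with 187 at an unadjusted p under 0.05. ubc7 was at 71.7, 82.9 and 78.0 CPM in tra1-AA, and tra1D exceeded it by 1.46 on the log2 scale (SE 0.08, edgeR, BH-adjusted p = 1.1e-06). mcs2 was at 15.9, 10.1 and 15.2 CPM in tra1-AA, above all tra1D libraries, but the difference of -1.39 did not pass (edgeR, BH-adjusted p = 0.141). DESeq2 called 4 genes in this comparison, adding mcs2 and SPBC530.07c. The count rose to 5 without tra1-AA replicate 2, when mcs2, SPBC530.07c and pfl9 were added. It was also 5 without tra1D replicate 2, when rpl102, eno102 and SPBPB10D8.02c were added. Whether the tra1-AA libraries were made together with the others is not given in the sources used here, and such a difference cannot be told apart from genotype.

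Across the genome 566 of 4913 genes were called in tra1D against WT (11.5%; edgeR, BH-adjusted p under 0.05). Of these, 254 rose (5.17%) and 312 fell (6.35%), and 562 had group ranges that did not overlap. A further 1044 genes had ranges that did not overlap without being called. Nearly all called genes have such ranges, so for a called gene named above or below they are no further support. The largest rises and falls were also picked from called genes with such ranges. Most changes were small. The median called change was 1.37-fold, 183 of the rises and 177 of the falls were under 1.5-fold, and the median log2 fold change of all tested genes was 0.00. Falls reached further than rises, with 67 falls and 30 rises of at least 2-fold and 23 falls and 6 rises of at least 4-fold. The median called change was largest among weakly expressed genes. In the 1229 genes of lowest level (mean up to 39.4 CPM) it was 0.92 on the log2 scale. In the sets above (39.4 to 77.6 and 77.7 to 159 CPM) it was 0.43 and 0.35. In the 1228 genes of highest level (from 159 CPM) it was 0.42. A gene of few counts must change more to be called, so these medians cannot show whether weakly expressed genes changed more. The share called was 13.4% at the highest level and smaller at the lowest.

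The split between rises and falls depends on the scaling. By TMM 44.9% of called genes were rises, but with library totals alone 381 rose and 206 fell (64.9% rises), as all fold changes moved by a median of 0.07 on the log2 scale. For most groups below, the median is therefore given with both scalings. The number of calls also depends on single libraries: it was 281 without WT replicate 1, 278 without tra1D replicate 2 and 323 without tra1D replicate 3. The calls that held in all 6 fits leaving out a library were 222, of which 81 were rises and 141 falls, and they include 25 of the 2-fold rises and 46 of the 2-fold falls. Below, a call said to be lost without a library is one that ended when that single library was left out. Among the genes described below, library totals alone ended the calls of bgs3, bgs4, ags1, spc7, gsf1, gsf2, frp1, adg3, rpn502, met16, SPBPB8B6.05c and duc1. DESeq2 ended those of SPCC663.08c, frp1, rpp202 and SPAC186.04c. RLE factors ended that of amk2, limma-voom that of str3, and a minimum mean of 10 CPM that of gsf2. A fit of only the 6 libraries compared ended those of amk2, str3, frp1 and SPBPB8B6.05c. A replicate block ended those of gsf2, kgd2, met16, rpp202, SPAC186.04c and SPCC594.03. For gdt1 DESeq2 gave no usable value, so its call could not be checked there.

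**Figure D2:**
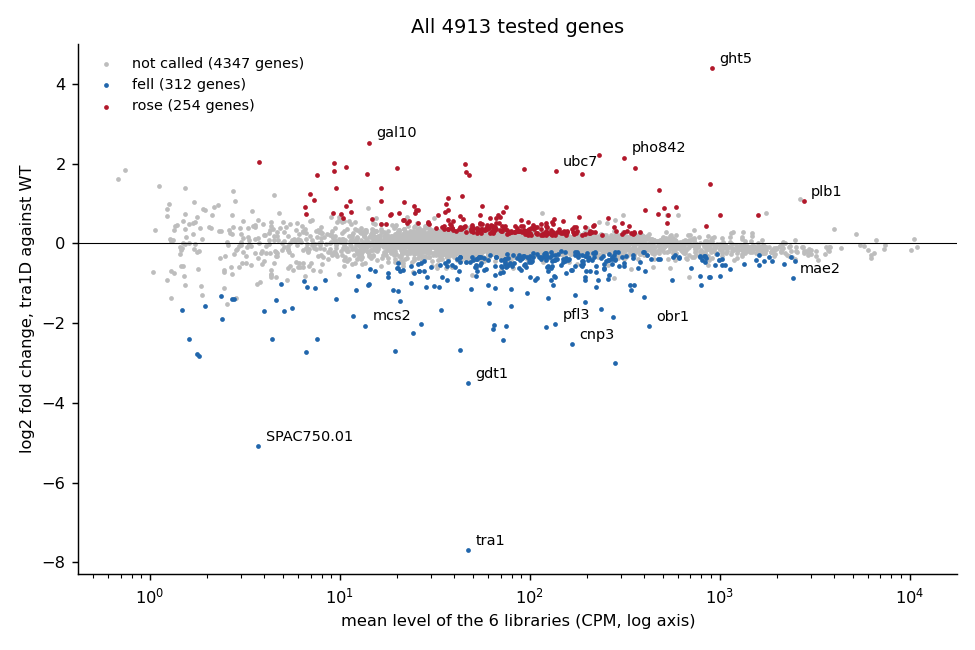
Log2 fold change of tra1D against WT for each tested gene over its mean level in the 6 libraries (CPM, log axis), with rises in red, falls in blue and genes not called in grey. ght5 leads the rises at 4.39, tra1 lies lowest at -7.69, and most called genes lie close to 0.

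Sugar uptake and use held the largest rise. ght5 (SPCC1235.14), encoding the high-affinity glucose transporter, was at 94.4, 125 and 28.2 CPM in WT and at 1639, 1952 and 1634 CPM in tra1D. WT replicate 3 was the lowest library, the groups did not overlap, and the level was 21.0-fold higher in tra1D (log2 4.39, SE 0.41, edgeR, BH-adjusted p = 4.32e-05). Of the other 7 hexose transporter genes tested, ght2 fell (215, 212 and 247 CPM to 165, 146 and 161 CPM, edgeR, BH-adjusted p = 0.0114), a call lost without tra1D replicate 2 (BH-adjusted p = 0.0597). ght8, at 1115, 1135 and 943 CPM in WT, did not pass (log2 -0.15), nor did ght1, ght3, ght4, ght6 and ght7 (0.31 to 1.03). The median of the list was 0.53 (0.61 with library totals alone), against 0.00 for all tested genes.

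The 3 tested genes of galactose use, which stand together near an end of chromosome II, all rose. gal10, for UDP-glucose 4-epimerase, was at 4.42, 3.68 and 4.44 CPM in WT and at 20.8, 20.1 and 32.0 CPM in tra1D (5.76-fold, edgeR, BH-adjusted p = 3.66e-05). gal7, for galactose-1-phosphate uridylyltransferase, went from 21.8, 22.9 and 16.6 CPM to 71.6, 74.6 and 68.6 CPM (3.48-fold, edgeR, BH-adjusted p = 5.08e-06). gal1, for galactokinase, rose least (log2 0.75, BH-adjusted p = 0.0207), and that call was lost without WT replicates 1 or 3 or tra1D replicate 3 (BH-adjusted p up to 0.0901). The groups did not overlap for any of the 3.

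Genes that respond to glucose supply did not move as a block. Of 9 glucose-repressed enzymes 2 rose and 3 fell (median 0.00, or 0.07 with library totals alone). These shares are 22.2% and 33.3%, against 5.17% and 6.35% of all genes. inv1, for invertase, rose from 3.16, 3.96 and 3.64 CPM to 9.44, 17.9 and 7.54 CPM (log2 1.72, edgeR, BH-adjusted p = 0.0089). agl1, for alpha-glucosidase, fell from 42.0, 42.4 and 43.7 CPM to 17.7, 22.3 and 20.5 CPM (log2 -1.08, edgeR, BH-adjusted p = 1.07e-04). The malate transporter gene mae1 and the malic enzyme gene mae2 both fell, by 0.85 and 0.88 on the log2 scale. mae2 is among the called falls with the highest CPM, at 3299, 3651 and 2474 CPM in WT and 1699, 1552 and 1865 CPM in tra1D. fbp1, the gluconeogenic enzyme by which glucose repression is usually read in this yeast, was low in both groups, at 3.41, 3.96 and 4.28 CPM and 3.49, 3.88 and 2.35 CPM, and did not pass (edgeR, BH-adjusted p = 0.615).

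Of 19 genes of glucose signalling 2 fell and 1 rose (median 0.08), a share of falls of 10.5% against 6.35% of all genes, and with library totals alone 2 fell and 3 rose (median 0.15). git3, encoding the glucose receptor, went from 98.5, 94.4 and 76.0 CPM to 35.2, 42.5 and 45.4 CPM (log2 -1.13, edgeR, BH-adjusted p = 3.05e-04). gpa2, the G protein alpha subunit that acts with it, went from 123, 106 and 101 CPM to 79.2, 78.6 and 70.6 CPM (log2 -0.54, edgeR, BH-adjusted p = 0.00244). Neither overlapped between groups, and both calls held with each library left out. The rise was that of amk2, a subunit of AMP-activated kinase, by 0.26 (lost without WT replicates 1 or 3 or any of the tra1D libraries, BH-adjusted p up to 0.127).

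In central carbon metabolism the RNA of single genes changed. Among 21 genes of glycolysis and fermentation 2 rose and 2 fell, each 9.52% against 5.17% and 6.35% of all genes (median 0.06), and with library totals alone 5 rose and 2 fell (median 0.14). Of these calls the 2 rises held with each library left out. atd1, an aldehyde dehydrogenase gene, was at 148, 99.9 and 208 CPM in WT and at 742, 561 and 383 CPM in tra1D (3.70-fold, edgeR, BH-adjusted p = 6.23e-04). gpd3, a glyceraldehyde-3-phosphate dehydrogenase gene, went from 443, 704 and 251 CPM to 1267, 1113 and 1523 CPM (log2 1.48, edgeR, BH-adjusted p = 0.00576). pfk1, the gene of phosphofructokinase, fell by 0.51 (lost without WT replicate 2 or tra1D replicate 2, BH-adjusted p up to 0.0646). eno102, an enolase gene near an end of chromosome II, fell by 1.39 (lost without WT replicate 1, BH-adjusted p = 0.0749). Entry into the pentose phosphate path and into gluconate moved in opposite directions: zwf1 (glucose-6-phosphate dehydrogenase) fell by 0.57 while gcd1 (glucose dehydrogenase) rose by 1.90 and idn1 (gluconate kinase) by 0.54.

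In the tricarboxylic acid cycle 5 of 16 genes rose and 1 fell (median 0.06, or 0.13 with library totals alone). These shares are 31.2% and 6.25%, against 5.17% and 6.35% of all genes. mdh1, for malate dehydrogenase, rose from 199, 214 and 194 CPM to 328, 324 and 292 CPM (log2 0.64, edgeR, BH-adjusted p = 1.14e-04), and fum1, for fumarase, fell from 356, 389 and 360 CPM to 275, 240 and 267 CPM (log2 -0.50, edgeR, BH-adjusted p = 0.00208). These 2 calls and that of idh1, an isocitrate dehydrogenase gene (0.41), held with each library left out. The calls of cit1, kgd2 and lsc2 (0.43, 0.28 and 0.25) did not: cit1 was lost without WT replicate 1 (BH-adjusted p = 0.052), kgd2 without any WT library or tra1D replicates 1 or 2, and lsc2 without any WT library or tra1D replicates 2 or 3 (up to 0.0998 and 0.152). Among 37 nuclear genes of the respiratory chain 2 rose and 2 fell, by at most 0.47. That is 5.41% each, near the shares of all genes. With library totals alone 4 rose and 1 fell.

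**Figure D3:**
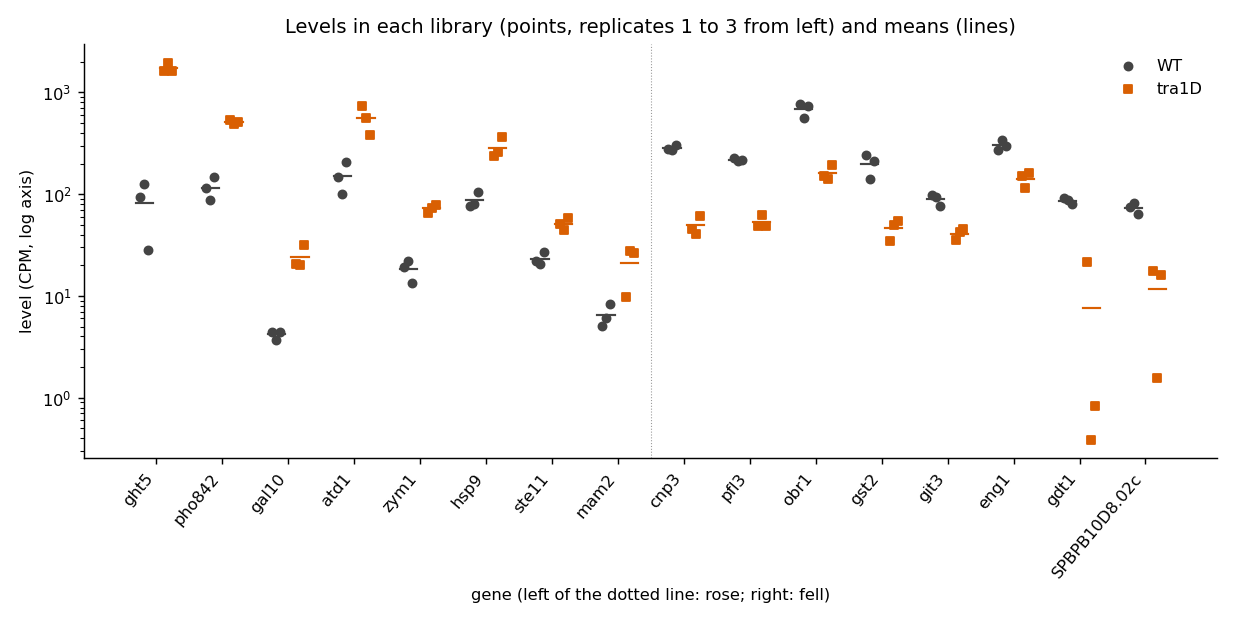
Levels (CPM, log axis) of 16 genes in the WT (circles) and tra1D (squares) libraries, with replicates 1 to 3 from left to right and a line at each mean. The groups do not overlap for any of them. The genes were picked among the called genes, of which 562 of 566 do not overlap, so this is no further support. tra1D replicates differ most for gdt1 and SPBPB10D8.02c.

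Genes of the mating pathway were higher in tra1D. In fission yeast, nutrients hold down the transcription factor Ste11, and pheromone from the opposite mating type acts through a G protein and a MAP kinase cascade to raise it further. Of 11 tested genes of pheromone signalling 6 rose and none fell, against 5.17% rises among all genes, with a list median of 0.51 (0.59 with library totals alone). ste11 itself rose from 22, 20.6 and 27.2 CPM to 50.8, 44.5 and 57.8 CPM (log2 1.14, edgeR, BH-adjusted p = 2.09e-04). All tra1D libraries lay above all WT libraries.

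Downstream, ste4, whose product binds the kinase Byr2, rose from 26.8, 23.3 and 22.5 CPM to 36.2, 53.6 and 55.2 CPM (log2 0.99, edgeR, BH-adjusted p = 0.00306). byr1, the MAP kinase kinase gene, rose by 0.51, and spk1, the MAP kinase gene, by 0.84. rgs1, which encodes a regulator that damps the pheromone G protein, rose by 0.78. map1, for a transcription factor that acts in P cells, rose by 1.06. The call of spk1 was lost without WT replicate 1 or tra1D replicate 3 (edgeR, BH-adjusted p up to 0.0957), and the other 5 held with each library left out. gpa1, the pheromone G protein gene, was at 0.41 and missed the threshold (BH-adjusted p = 0.0665), and ras1, byr2, ste6 and fus1 did not pass either, at -0.09 to 0.34.

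Of 7 tested genes typical of M cells 3 rose (42.9%, against 5.17% of all genes). The median was 0.79, or 0.88 with library totals alone, and 1 of these calls, mfm2, held with each library left out. Of 4 typical of P cells none passed in edgeR or DESeq2 or had an unadjusted p under 0.05, with log2 fold changes of -0.15 to 0.14. The difference between the 2 lists was not tested. mam2, which encodes the receptor M cells use to sense P-factor, went from 5.05, 6 and 8.40 CPM to 9.73, 27.8 and 26.3 CPM (log2 1.73, edgeR, BH-adjusted p = 0.00912). tra1D replicate 1 was the lowest tra1D library for mam2, and the call was lost without WT replicate 1 (BH-adjusted p = 0.0508). mfm2, a gene of the M-factor precursor, rose from 12.2, 10.1 and 9.66 CPM to 17.3, 25.2 and 24.3 CPM (log2 1.06, edgeR, BH-adjusted p = 0.00463). mam1, the M-factor exporter, rose by 0.79 and was lost without tra1D replicates 2 or 3 (BH-adjusted p up to 0.0556). Another 5 of the 12 M-cell genes listed had too few counts to be tested. In these bulk samples a change in the share of cells of a mating type and a change in RNA per cell cannot be told apart.

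Of 19 genes of sexual differentiation 2 rose and 3 fell, or 10.5% and 15.8% against 5.17% and 6.35% of all genes. mei2, the RNA-binding inducer of meiosis, rose from 26, 39.4 and 14.9 CPM to 48.7, 58.3 and 77.1 CPM (2.27-fold, edgeR, BH-adjusted p = 0.0204), a call lost without WT replicate 1 or tra1D replicates 2 or 3 (up to 0.0823). pac2, which encodes a repressor of ste11, fell from 336, 356 and 302 CPM to 208, 187 and 177 CPM (log2 -0.79, edgeR, BH-adjusted p = 8.2e-05). isp3, a spore protein gene, fell by 1.05 from a low level. gnr1, which encodes a G protein beta-like protein that damps the pheromone response, was among the 15 largest rises, at 4.54, 2.73 and 6.34 CPM in WT and 20.8, 12.4 and 17.4 CPM in tra1D (edgeR, BH-adjusted p = 0.00213).

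Nitrogen genes changed in both directions. isp5, an amino acid permease gene, rose from 49.1, 53.3 and 17.4 CPM to 139, 127 and 176 CPM (3.63-fold, edgeR, BH-adjusted p = 0.00576), with WT replicate 3 lowest. car2, for ornithine transaminase, was among the rises with the highest CPM (1131, 1165 and 1347 CPM to 2211, 1954 and 1743 CPM), whereas car1, for arginase, fell by 1.15. put1, for proline oxidation, rose by 0.91, and cat1, a cationic amino acid transporter gene, fell by 0.93. In all, 4 of 20 genes of this list rose and 2 fell (median 0.09, or 0.16 with library totals alone). Both shares are above the 5.17% rises and 6.35% falls of all genes. With each library left out, 3 of the rises and the 2 falls held. The rise of isp6, by 0.65, was lost without WT replicate 1 or tra1D replicate 2 (edgeR, BH-adjusted p up to 0.052).

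Of 13 phosphate genes 2 rose (15.4%, against 5.17% of all genes) and none fell, with 4 at an unadjusted p under 0.05. The list median was 0.06, or 0.13 with library totals alone. pho842, of the phosphate transporter family, rose from 114, 87.9 and 146 CPM to 536, 491 and 508 CPM (4.42-fold, edgeR, BH-adjusted p = 5.08e-06). 2 further genes of that family are not in the list and were picked for mention after their values were seen. pho841 fell from 282, 234 and 345 CPM to 102, 104 and 105 CPM (log2 -1.47, edgeR, BH-adjusted p = 1.24e-05), and pho843 fell from 172, 150 and 184 CPM to 97.5, 77.8 and 94.1 CPM (log2 -0.91, edgeR, BH-adjusted p = 1.13e-04). The main phosphate transporter gene, pho84, did not pass (log2 0.26). The acid phosphatase gene pho1 rose by 0.90 and was lost without WT replicate 1 or tra1D replicates 1 or 2 (BH-adjusted p up to 0.0808).

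Stress genes divided in both directions. Of 22 core stress response genes 5 rose and 4 fell (median 0.00, or 0.08 with library totals alone), and of 25 oxidative stress genes 5 rose and 5 fell (median 0.02, or 0.09), so the share called, though above 11.5%, had no common sign. zym1, for a metallothionein that binds zinc, went from 19.2, 22 and 13.5 CPM to 65.5, 73.8 and 78.8 CPM (3.96-fold, edgeR, BH-adjusted p = 1.3e-05). hsp9, a small heat shock protein gene, went from 75.7, 80.6 and 104 CPM to 238, 257 and 367 CPM (3.31-fold, edgeR, BH-adjusted p = 5.22e-04). Both lay above WT in all 3 tra1D libraries, but their selection among the largest rises required this, so it is no further support.

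The largest falls of these lists were gst2, obr1 and rds1. gst2, a glutathione S-transferase gene, fell from 241, 142 and 211 CPM to 34.4, 49.7 and 54.8 CPM (log2 -2.10, edgeR, BH-adjusted p = 4.54e-05). obr1, a known target of the transcription factor Pap1, fell from 766, 555 and 727 CPM to 150, 141 and 194 CPM (log2 -2.08, edgeR, BH-adjusted p = 5.08e-06). rds1 fell from 486, 558 and 236 CPM to 128, 119 and 108 CPM (log2 -1.85, edgeR, BH-adjusted p = 3.85e-04). By contrast tpx1, the main peroxiredoxin gene, rose from 755, 799 and 738 CPM to 1270, 1079 and 1381 CPM (log2 0.70, edgeR, BH-adjusted p = 0.00685), and the glutathione peroxidase gene gpx1 rose by 0.56. The transporter gene bfr1, which pumps out drugs, fell by 0.64. Among 21 chaperone genes 3 rose (14.3%, against 5.17% of all genes): hsp9, and the Hsp90 cochaperone genes sti1 by 0.44 and cdc37 by 0.41. The Hsp40 gene mas5 fell by 0.40 (4.76% falls, against 6.35%), a call lost without tra1D replicate 2 (edgeR, BH-adjusted p = 0.0619).

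In the lists of cell separation, adhesion, sulfur, fatty acids and iron all called genes were falls: 5 of 25 tested members in the first, and 27.8%, 29.4%, 30.8% and 31.2% in the others, against 6.35% of all genes. With each library left out, 3, 2, 3, 1 and 1 of these falls held. Of 25 genes of mitosis and cell separation none rose and 5 fell, of which 4 are described here. eng1, for the glucanase that opens the septum, fell from 273, 338 and 297 CPM to 150, 114 and 161 CPM (log2 -1.10, edgeR, BH-adjusted p = 1.07e-04). adg1 and adg2 fell by 1.04 and 0.90, and both calls, like that of eng1, held with each library left out. The fall of adg3, by 0.42, was lost without WT replicate 3 or tra1D replicates 1 or 2 (edgeR, BH-adjusted p up to 0.116). The list median was -0.14 (-0.06 with library totals alone, where 3 fell).

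cnp3, which encodes the kinetochore protein CENP-C, was 1 of 2 falls among 36 centromere and kinetochore genes, and by far the larger. It stood at 276, 273 and 304 CPM in WT and at 45.6, 41.0 and 61.4 CPM in tra1D, 5.79-fold lower (log2 -2.53, SE 0.12, edgeR, BH-adjusted p = 8.43e-08). Falls and rises were 5.56% each of this list, near the 6.35% and 5.17% of all genes. The other fall, spc7 (-0.27), and the 2 rises, mis16 and sim3 (0.34 and 0.32), were small. Each was lost in at least 3 of the 6 fits that left out a library: mis16 without WT replicate 1 or tra1D replicates 1 or 2, and sim3 and spc7 without WT replicates 1 or 2 or any of the tra1D libraries (BH-adjusted p up to 0.0978, 0.0775 and 0.151).

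Of 18 flocculin and adhesion genes none rose and 5 fell. pfl3, for a flocculin of the cell surface, was at 225, 213 and 216 CPM in WT and at 48.5, 62.0 and 49.1 CPM in tra1D (log2 -2.03, SE 0.09, edgeR, BH-adjusted p = 7.73e-08). cbf12, for a transcription factor that promotes adhesion, went from 95.7, 85.0 and 62.9 CPM to 34.4, 43.2 and 41.2 CPM (log2 -1.04, edgeR, BH-adjusted p = 7.1e-04). The other 3 fell by 0.37 to 0.51 and did not hold: gsf1 was lost without WT replicates 1 or 2 or any of the tra1D libraries, gsf2 without WT replicates 1 or 2 or tra1D replicates 1 or 2, and pfl2 without WT replicates 1 or 2 or tra1D replicates 2 or 3 (BH-adjusted p up to 0.175, 0.159 and 0.119). The list median was -0.04, and 0.04 with library totals alone, where 3 fell.

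In sulfur assimilation none of 17 genes rose and 5 fell (median -0.17, or -0.10 with library totals alone). met17, for the enzyme that fixes sulfide into homocysteine, fell from 120, 184 and 103 CPM to 52.0, 55.8 and 63.0 CPM (log2 -1.25, edgeR, BH-adjusted p = 0.00148). sua1, for ATP sulfurylase, fell from 1408, 1462 and 1269 CPM to 1020, 774 and 861 CPM (log2 -0.64, edgeR, BH-adjusted p = 0.00505), and cys2 fell by 0.58. The sulfite reductase gene sir1 (-0.54) was lost without WT replicates 1 or 2 or tra1D replicates 1 or 2, and met16 (-0.26) without any of the 6 libraries (BH-adjusted p up to 0.0874 and 0.12).

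Of 13 genes of fatty acid synthesis 4 fell and none rose. The elongase gene elo2 fell from 253, 266 and 233 CPM to 159, 131 and 131 CPM (log2 -0.84, edgeR, BH-adjusted p = 1.23e-04). elo1 and lcf1 fell by 0.62 and 0.42 and were each lost without WT replicate 1 or tra1D replicate 3, and the biotin transporter gene vht1 fell by 0.92 and was lost without WT replicate 1 or tra1D replicates 2 or 3 (BH-adjusted p up to 0.0589, 0.066 and 0.0775). Among 26 cell wall genes 3 glucan synthase genes fell (11.5%, against 6.35% of all genes), bgs3 by 0.43, bgs4 by 0.32 and ags1 by 0.30. Of these bgs3 held with each library left out, though with library totals alone none of the 3 passed (edgeR, BH-adjusted p = 0.0506 for bgs3). bgs4 was lost without WT replicate 1 or tra1D replicates 2 or 3, and ags1 without WT replicate 1 or tra1D replicate 2 (BH-adjusted p up to 0.0801 and 0.0681).

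Iron uptake genes were lower but uneven among replicates, with 5 falls and no rise among 16 tested (median -0.28, or -0.20 with library totals alone). str1, a siderophore transporter gene, was at 78.0, 51 and 238 CPM in WT and at 28.8, 12.4 and 27.7 CPM in tra1D. WT replicate 3 was far above the other WT libraries, and the log2 fold change of -2.42 (edgeR, BH-adjusted p = 0.0125) was -1.51 without it. The call was lost without tra1D replicate 2 (BH-adjusted p = 0.0641). str3, also high in WT replicate 3 (2.78, 4.37 and 15.2 CPM in WT), went from -2.39 to -1.37 without that library and was lost there and without any of the tra1D libraries. fio1 and frp1, for the ferroxidase and the ferric reductase of uptake, were 2.27-fold and 2.26-fold lower. fio1 was lost without tra1D replicates 2 or 3 (up to 0.08), frp1 without WT replicates 1 or 3 or tra1D replicates 2 or 3 (up to 0.146), and str3 reached 0.127. grx4, whose product helps control the iron regulators, fell by 0.45 and held throughout. RNA of ctr4, a copper transporter gene, varied within tra1D. It was at 402, 337 and 71.8 CPM there and at 323, 258 and 486 CPM in WT, and it was not called.

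**Figure D4:**
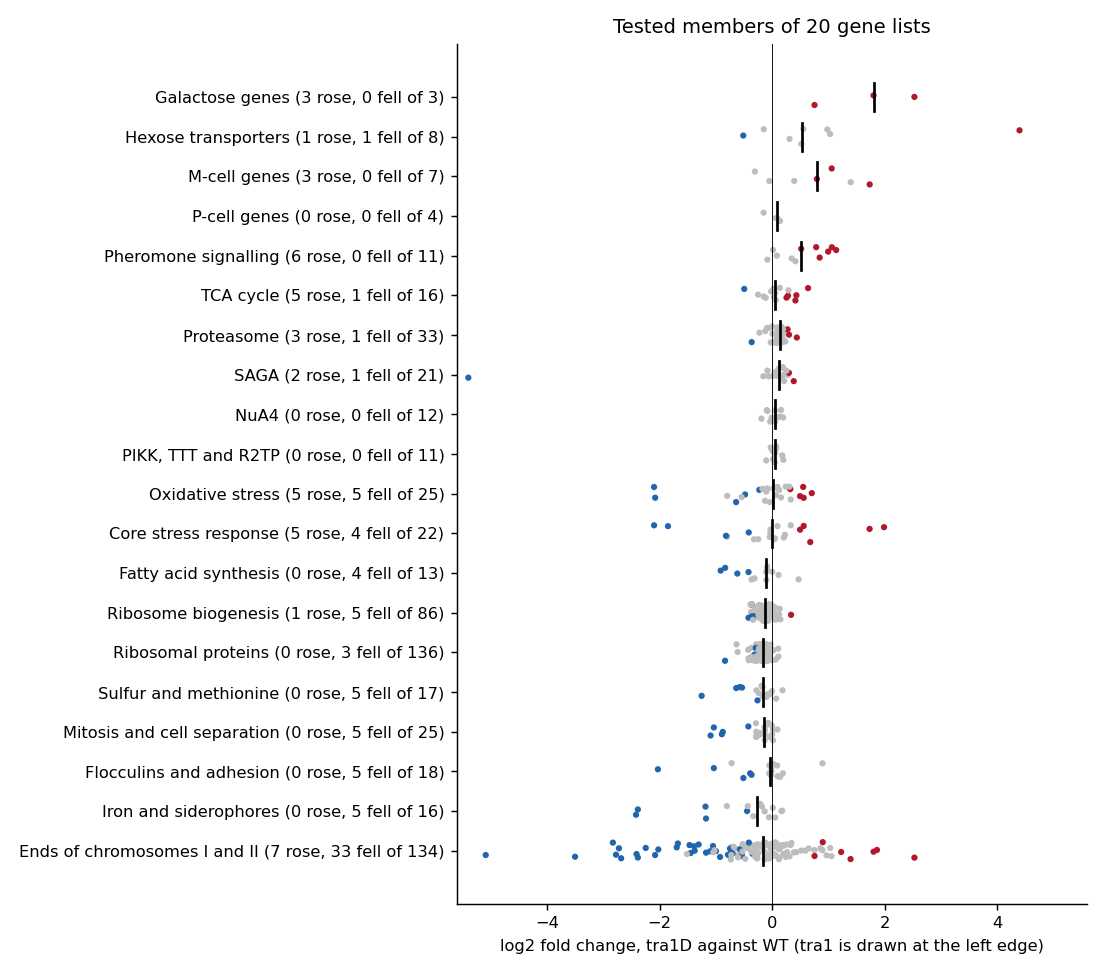
Log2 fold change of tra1D against WT of the tested members of 20 gene lists, 1 point a gene (red rose, blue fell, grey not called) with a bar at each median. Pheromone and galactose genes lie to the right of 0, iron, sulfur and chromosome-end genes spread to the left, and the genes of NuA4 and of the PIKK group stay close to 0.

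Genes of the complexes around Tra1 were close to WT. Apart from tra1, 2 of 20 SAGA genes passed, ada2 with 0.38 and sgf73 with 0.30. With tra1 counted in, these 2 rises are 9.52% of 21 genes, against 5.17% of all genes. Of the 21, 17 lay above 0 (median 0.12, or 0.20 with library totals alone). At an unadjusted p under 0.05 there were 8 of the 21, against 1300 of all 4913 genes. The ada2 call was lost without WT replicates 1 or 2 or tra1D replicates 2 or 3, and that of sgf73 without WT replicates 1 or 3 or any of the tra1D libraries (edgeR, BH-adjusted p up to 0.121 and 0.123). The acetyltransferase gene gcn5 was at 55.4, 50.6 and 54.5 CPM in WT and 56.4, 40.8 and 57.0 CPM in tra1D. Of 12 NuA4 genes none passed (1 at an unadjusted p under 0.05), and tra2 was at 121, 119 and 118 CPM in WT and 119, 123 and 129 CPM in tra1D. No gene passed among the 11 of other PIKKs, the TTT chaperone and R2TP (-0.11 to 0.20), the 10 of the TOR complexes (-0.11 to 0.18), the 17 of Mediator (-0.19 to 0.36), the 16 of INO80 and SWR1 (-0.22 to 0.31) and the 15 of the vacuolar ATPase (-0.03 to 0.20), where at an unadjusted p under 0.05 there were 1, 1, 3, 2 and 1 genes. Of all tested genes 11.5% were called. DESeq2 called none of the genes of these groups or of NuA4, while library totals alone gave 1 rise each in the PIKK, Mediator and vacuolar ATPase groups.

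Ribosomal genes lay slightly below WT as a group. Of 136 ribosomal protein genes 3 fell, a share of 2.21% against 6.35% of all genes. Yet 131 of the 136 lay below 0 (median -0.16), and 118 did so with library totals alone (median -0.09). The largest fall, rpp202, went from 938, 1595 and 834 CPM to 760, 505 and 617 CPM (log2 -0.84, edgeR, BH-adjusted p = 0.0374) and was lost without WT replicates 1 or 2 or tra1D replicates 2 or 3 (up to 0.146). Ribosome biogenesis genes had a median of -0.13 (-0.06 with library totals alone). Their 1 rise and 5 falls among 86 were 1.16% and 5.81%, against 5.17% and 6.35% of all genes. None of these calls held with each library left out. In the other direction 27 of 33 proteasome genes lay above 0 (median 0.13, or 0.20 with library totals alone). The 3 rises (9.09%, against 5.17% of all genes) were rpn1301 by 0.44, rpt4 by 0.30 and rpn12 by 0.27. With library totals alone there were 11 rises. rpn12 was lost without WT replicate 1 or tra1D replicates 2 or 3 (edgeR, BH-adjusted p up to 0.127). The fall of rpn502 (-0.37) is uncertain because a near-identical copy shares its reads.

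Away from these groups, the phospholipase gene plb1 had the highest CPM of any called rise (a scale that is not per length), from 1904, 2157 and 1325 CPM to 3708, 3670 and 3792 CPM (log2 1.05, edgeR, BH-adjusted p = 0.00117). SPAC27D7.11c rose from 92.0, 82.0 and 73.5 CPM to 493, 348 and 299 CPM (4.60-fold, edgeR, BH-adjusted p = 1.86e-05), and SPAPB24D3.07c fell from 510, 649 and 329 CPM to 52.3, 86.0 and 46.1 CPM (log2 -3.00, edgeR, BH-adjusted p = 4.9e-05). The files and the reference give neither of these a name. Other unnamed genes among the largest falls were SPBC23G7.10c (6.53-fold), SPCC663.08c (5.31-fold) and SPBC1685.17 (4.45-fold). SPCC663.08c had 4.36, 2.59 and 0 CPM in tra1D. Its log2 fold change of -2.41 ran from -3.15, without tra1D replicate 1, to -1.9 with a library left out.

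Falls were frequent near the ends of chromosomes I and II. Genes were counted inward from each end in the order of the reference annotation. Of the 50 outermost genes at these 4 ends, 134 of 200 had enough counts, and 7 rose and 33 fell, which is 24.6% falls against 6.35% of all genes (median -0.17, or -0.10 with library totals alone). Of the 37 tested genes in positions 11 to 25, 45.9% were called (4 rose, 13 fell), and the share was 23.7% in positions 26 to 50, 13.3% in 51 to 100 and 10.3% further in. The outermost 10 had 4 tested genes, too few to place. The left end of chromosome I had 11 falls and no rise among 31 genes, the left end of II had 11 falls and 1 rise among 33, the right end of I had 7 falls and 2 rises among 32, and the right end of II, where the galactose genes lie, had 4 of each among 38. In the fits that left out each library in turn, 18 of the 33 falls and 3 of the 7 rises held throughout.

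Among the genes at these ends, the 4 lowest log2 fold changes were those of SPAC750.01, gdt1, SPAC186.06 and SPAC186.04c, all at the right end of chromosome I. For SPAC750.01 the 155 counts of WT stood against 4 of tra1D, a ratio of 37.0 (exact 95% counting interval 14.1 to 137), and was at 6.69, 6.82 and 8.24 CPM in WT and at 0.291, 0.129 and 0.168 CPM in tra1D. gdt1 was at 91.3, 87.7 and 80.0 CPM in WT and at 21.5, 0.388 and 0.838 CPM in tra1D, a log2 fold change of -3.50 (SE 0.66, edgeR, BH-adjusted p = 0.00518). tra1D replicate 1 stood well above the other tra1D libraries, and without it the value was -7.16, without tra1D replicate 2 it was -2.90. Between and beside them SPAC186.06 had 70 counts in WT and 9 in tra1D (ratio 7.42, interval 3.69 to 16.9), and SPAC186.04c had 67 and 9 (ratio 7.10, interval 3.53 to 16.2). Of these 18 tra1D counts, 8 and 9 came from replicate 1, and both calls were lost without WT replicates 1 or 2 or tra1D replicates 2 or 3, and that of SPAC186.04c also without WT replicate 3 (BH-adjusted p up to 0.0932 and 0.121). In the tra1-AA libraries gdt1 was at 0.430, 0.419 and 0 CPM, and SPAC186.06 and SPAC186.04c had no count.

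At the left end of chromosome II the outlying library was another. SPBPB10D8.02c was at 75.4, 82.4 and 63.4 CPM in WT and at 17.7, 1.55 and 16.1 CPM in tra1D (log2 -2.69, edgeR, BH-adjusted p = 0.00217). Its neighbour SPBPB10D8.01 was at 124, 99.9 and 139 CPM in WT and at 45.6, 11.5 and 29.3 CPM in tra1D, and grt1 was at 44.7, 40.1 and 43.9 CPM and at 14.1, 4.92 and 13.1 CPM. For all 3, tra1D replicate 2 was the lowest library, and no tra1D library reached the WT range. SPBPB21E7.09, beside SPBPB10D8.01, fell by 1.45, and SPBPB8B6.05c by 0.42, but both have near-identical copies elsewhere and are uncertain.

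**Figure D5:**
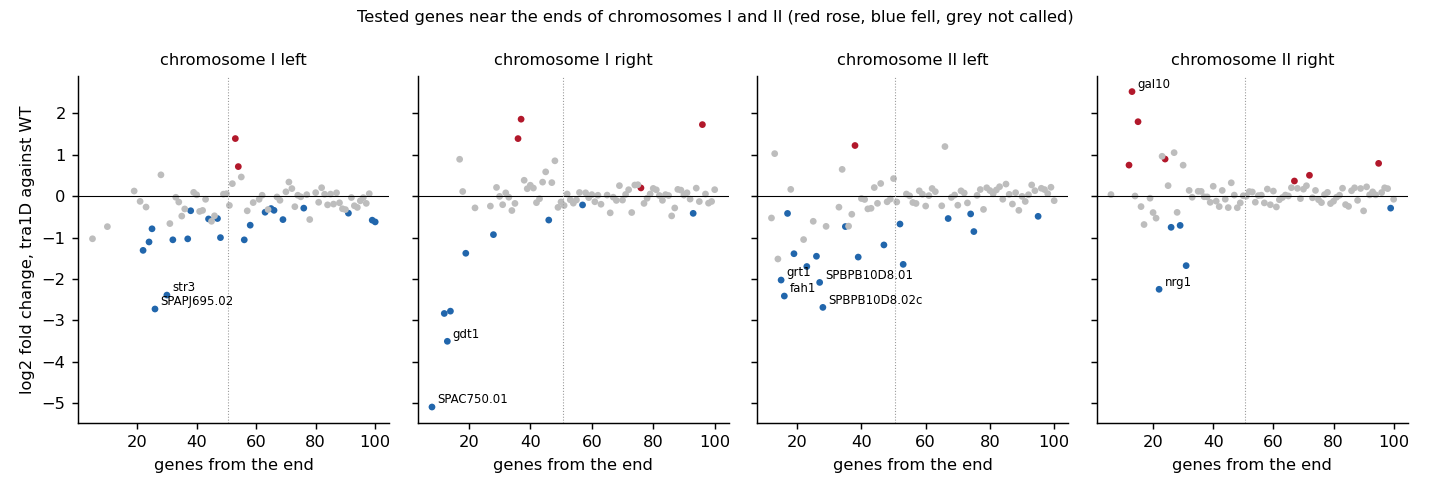
Log2 fold change of tra1D against WT of tested genes by their position in genes from each end of chromosomes I and II (red rose, blue fell, grey not called, dotted line at 50). Falls cluster in the outermost 50 positions of the left ends and in a stretch of the right end of I, and gal10 leads the rises at the right end of II.

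Runs of at least 3 called genes with the same direction, next to each other among the tested genes, were all falls. There were 9 such runs, with 29 genes in all and at most 4 in a run, and 4 of the 9 lay within the outermost 50 genes. Genes with too few counts to be tested were passed over, which joined SPAC750.01 to SPAC186.06 in the run with gdt1. The run furthest from an end that held in all its members with each library left out was ecl2, SPBP35G2.17 and txc1 on chromosome II, with falls of 0.89, 1.13 and 0.65. Another run held duc1, SPCC594.02c and SPCC594.03 on chromosome III, of which SPCC594.02c (-0.40) held. duc1 was lost without WT replicate 1 or tra1D replicates 2 or 3, and SPCC594.03 without WT replicates 1 or 2 or tra1D replicates 1 or 2 (edgeR, BH-adjusted p up to 0.066 and 0.108).

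The authors' deposited table of the same comparison calls 570 genes at an adjusted p under 0.05, 205 up and 365 down. Of the 566 edgeR calls, 478 are called there in the same direction, 88 are not, and none is called in the opposite direction, while 92 genes are called in the authors' deposited table alone. Fold changes are smaller there: in the authors' deposited table tra1 is at -4.76 and ght5 at 1.05 on the log2 scale, and 15 genes rise and 25 fall by at least 2-fold.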

How the data were processed

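The counts are whole reads per gene, as deposited, not normalised. Per the submitters' processing notes the authors used bcl2fastq, HISAT2 2.1.0, HTSeq 0.9.1 and, for their comparison table, DESeq2 1.18.1. In that deposited table each gene has a log2 fold change, a p-value and an adjusted p-value from DESeq2. No coordinates or sequences are printed and promoter motifs were not analysed here, since the build, annotation and strand setting were not given in the sources used here.

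All 9 libraries entered 1 quasi-likelihood fit in edgeR 4.0.16 under R 4.3.3, scaled by TMM, which gave tra1D minus WT and tra1D minus tra1-AA, after filterByExpr (minimum count 10, minimum total 15; 4913 kept, 150 with a count set aside, each with at most 38 counts in a library). A call is a Benjamini-Hochberg-adjusted p under 0.05 over all tested genes. The common biological coefficient of variation was 0.0932. The fit was tested on simulated data. CPM use TMM-scaled library sizes. Names and gene order come from RefSeq ASM294v3, which matched all but 15 of 5129 IDs. Copies are BLAST 2.17.0 hits of at least 98% identity over at least 50 bases and 10% of the coding sequence.

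Named genes are tra1, the 15 largest rises and 15 largest falls of called protein-coding genes whose ranges do not overlap and whose higher group averages at least 10 CPM, up to 6 called members of each of 52 lists, the 4 highest-level calls in each direction, runs, the 6 largest changes against tra1-AA in each direction, and the 5 widest ranges in tra1D. Exceptions are stated or are list members given for context. The members and lists were chosen with earlier results of these data known. Some genes are in several lists. The text names only some of the called list members, and 1 item is not reported here, though counts include it. Alternatives were library totals alone, RLE factors, a minimum mean of 10 CPM, no filter, DESeq2 1.42.0, limma-voom (limma 3.58.1), only the 6 libraries compared, a replicate block, and each library left out.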

Additional observations from a re-analysis of the deposited data

How the results depend on the processing

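The 566 calls of tra1D against WT numbered 278 to 497 with a library left out, and 514 to 615 under the other settings: 548 with RLE factors, 587 with library totals alone, 558 without a filter, 518 at a mean of at least 10 CPM, 615 by DESeq2, 533 by limma-voom and 532 with only the 6 libraries compared. The 97 called changes of at least 2-fold numbered 72 to 90 with a library left out and 71 to 98 otherwise. For tra1D against tra1-AA, 2 genes were called, 4 by DESeq2 and 2 to 5 with a library left out. For the 186 named genes, other settings gave 1473 values, of which 89 kept their direction but lost the call, and leaving out a library gave 1116, of which 309 did. None of the called genes among them changed direction; ctr4, which was not called, ran from -0.79 to 0.05 with a library left out. No pairing by replicate number was seen across all genes: deviations of the same-numbered tra1D and WT libraries correlated at -0.07, -0.12 and -0.01. Such correlations cannot exclude a pairing that touches only some genes. With a replicate block 514 genes were called against WT (224 up, 290 down), 91 by at least 2-fold, and 3 against tra1-AA, where hsp9 was added. Depth limits genes of a few counts per library, whose ratios are given with counting intervals.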
